A study of Mus musculus with 60 samples.

Results

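The intestine tumour of mouse M00247 was compared with normal spleen. The members were chosen by their labels: 2 libraries titled intestine and marked as tumour, named T1 and T2, and 6 libraries titled spleen and marked as normal. These 8 samples are part of 42 tissue libraries and of 60 samples in the whole series. Both tumour libraries came from 1 animal, and the labels do not say how they were taken, so no test across animals is given. The 6 spleens came from 6 mice, and 1 of them was the spleen of mouse M00247 itself. All 8 libraries came from Rosa26CD74-NRG1/Flp mice, in which the FLP recombinase removes a stop cassette early in the embryo, so the spleens carry the CD74-NRG1 fusion transgene in nearly all tissues as the tumour does. Neither age nor any treatment was given in the labels. The spleen served as a lymphoid reference. Normal intestine, Peyer's patches and lymph nodes were not analysed here, so the values cannot separate the tumour from the lymphoid tissue of a normal gut. RNA came from sections of fresh frozen tissue, and libraries were made from the 3′ ends of messenger RNA with the Lexogen QuantSeq kit.

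Levels are CPM, the deposited estimated count of a gene divided by the library's total and multiplied by 1000000. The totals were 7499724 in T1, 8499185 in T2 and between 5799829 and 8192737 in the spleens. Of 54838 genes, 11258 had a mean of at least 5 CPM in 1 of the groups. A gene was called higher when both tumour libraries lay above all 6 spleens and the ratio of the means was at least 4, and called lower by the mirror rule. By this rule 289 genes (2.57%) were called higher and 487 (4.33%) were called lower. These shares are the background for all counts of called list members given later. At any fold, 3288 genes (29.2%) lay above all 6 spleens in both tumour libraries and 1182 (10.5%) lay below. The median log2 ratio over the 11258 genes was 0.25. Haemoglobin genes took 13.0 to 24.9% of the spleen counts but 0.0587% of T1 and 0.241% of T2. With totals that left out immunoglobulin, haemoglobin and mitochondrial genes, the median shifted by -0.31 and the calls split into 228 higher and 720 lower. Scaled to the summed pan B cell level, a setting chosen after the data were seen, they split into 139 and 890, and against the spleen of mouse M00247 alone into 924 and 596. In tissue, fewer cells of a type and less RNA per cell cannot be told apart.

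The spleen of mouse M00247 stood apart from the other 5. Its 12 neutrophil genes summed to 21863 CPM against 156 to 1807 CPM, its 8 mast cell genes to 582 CPM against 14.0 to 29.7 CPM, and Ighd was at 3.54 CPM against 79.4 to 284 CPM. The spleen of M00246 held 999 CPM of 9 pancreatic acinar genes, and the other 5 held between 0.244 and 189 CPM. In addition, T1, T2 and the M00247 spleen had 0.53, 1.06 and 1.54 CPM of 4 Y-linked genes together, while the other 5 spleens had 109.6 to 207 CPM. Xist, the RNA of the inactive X chromosome, named after its values were seen, was at 577, 428 and 244.9 CPM in those 3 libraries and at most 1.86 CPM in the others, so sex-linked genes differ between the animals and not only between the tissues.

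Germinal centres are the sites in lymphoid follicles where activated B cells divide, mutate their antibody genes and are selected with the help of follicular T cells. Bcl6 is the repressor that maintains this stage. Germinal centres are a standing feature of gut lymphoid tissue, where much of the switched antibody is IgA.

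The tumour had far more germinal centre B cell RNA than any spleen. Of the 13 genes of this list, all 13 passed the minimum level, 11 were called higher, against 2.57% of all genes, and none lower. Their median log2 ratio was 4.13, against 0.25 over all genes that passed. The list members were chosen with earlier results of these data known, so these values describe the list and do not test it. Rgs13, a regulator of G protein signalling found in germinal centre B cells (ENSMUSG00000051079), was at 162 CPM in T1 and 101 CPM in T2. In the spleens it was at 0.413 CPM at the lowest, 1.12 CPM at the median and 1.46 CPM at the highest, a 128-fold difference of the means with no overlap. Mef2b, a transcription factor that activates Bcl6 (ENSMUSG00000079033), was at 164 and 122 CPM against 1.94, 4.38 and 9.38 CPM for the lowest, median and highest spleen. Gcsam, a signalling adaptor named after this cell stage (ENSMUSG00000022659), was at 135 and 116 CPM against 3.45, 5.61 and 10.9 CPM. For each of these 3 marker genes the spleen of mouse M00247 was the highest or the second highest spleen, with 1.38, 9.38 and 10.9 CPM, and still lay far under both tumour libraries.

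S1pr2, the receptor that holds B cells inside the follicle, was at 110 and 105 CPM against 3.91 to 8.93 CPM. Mybl1, a cell cycle transcription factor of germinal centre cells, was at 107 and 72.2 CPM against 3.17 to 5.64 CPM. Neil1, a DNA glycosylase, was at 148 and 98.7 CPM against 4.92 to 11.4 CPM. All 3 were thus at least 17-fold apart between the means of the groups, with no overlap.

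Nuggc, a nuclear GTPase of these cells, was at 25.2 and 17.5 CPM against 0.307 to 3.10 CPM. Fas, the death receptor, was at 42.1 and 42.6 CPM against 2.46 to 8.28 CPM, and Eaf2, an elongation factor partner, at 72.7 and 60.2 CPM against 5.53 to 19.8 CPM. Bcl6 itself was at 115 and 89.0 CPM against 13.6 to 44.0 CPM, a 4.14-fold difference. That value is close to the limit of 4, and the call was lost with TMM scaling, at a log2 ratio of 1.95, and without T1, at 1.85, and also without the spleen of M00247 or of M00249. Efnb1, a ligand of Eph receptors, was above all spleens, at 63.6 and 56.7 CPM against 12.2 to 31.2 CPM, but at 3.31-fold it was not called. Lmo2, which germinal centre B cells share with blood and endothelial precursors, was the exception: it was at 59.7 and 48.8 CPM, below all spleens at 65.0 to 212 CPM.

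**Figure D1:**
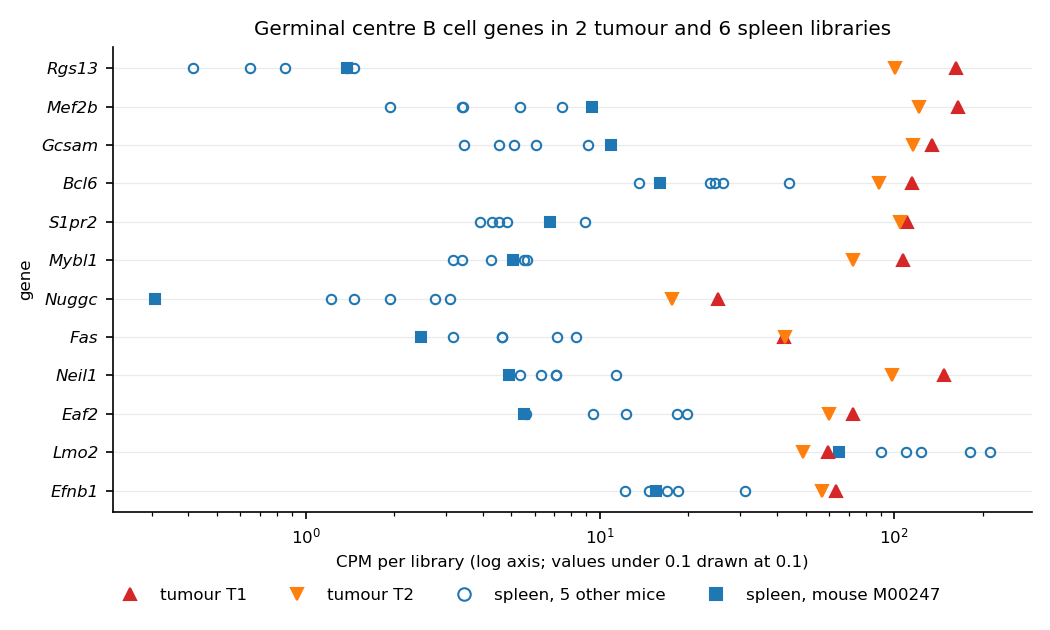
CPM on a log axis of 12 of the 13 germinal centre B cell genes, 1 point per library: 2 tumour libraries (triangles), the spleen of the tumour's own mouse (filled square) and 5 other spleens (circles). For every gene drawn but Lmo2 both triangles lie to the right of every spleen, and for Lmo2 they lie to the left.

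The general B cell level was much closer to spleen. The 16 pan B cell genes summed to 3210 CPM in T1 and 2336 CPM in T2, and the spleens ran from 941 to 2981 CPM, so the ranges overlap. Of these genes 1 was called higher and 1 lower, and their median log2 ratio was 0.29. Cd79a, a signalling chain of the B cell receptor, was at 304 and 194 CPM against 95.2 to 300 CPM. Pax5, the factor that fixes B cell identity, was at 252 and 191 CPM against 78.0 to 315 CPM. Ms4a1, which encodes CD20, was above all spleens at 779 and 505 CPM against 131 to 477 CPM. Pou2af1, a coactivator at immunoglobulin promoters, was called higher, with 713 and 443 CPM against 63.6 to 153 CPM. Without T1 this call was lost, at a log2 ratio of 1.95. Bank1, a scaffold protein of B cell receptor signalling, was the member called lower, at 24.1 and 25.8 CPM against 95.04 to 249.5 CPM; it lies outside the rule for named genes and was picked after its values were seen.

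Relative to the B cell level, the germinal centre share stayed high. Without Lmo2, the germinal centre list amounted to 37.4 CPM in T1 and 39.8 CPM in T2 for each 100 CPM of the pan B list. In the spleens it amounted to 4.19 CPM at the lowest, 4.89 CPM at the median and 8.82 CPM at the highest. The tumour mean was 7.11-fold the spleen mean, with no overlap. With Lmo2 kept, the list amounted to 39.3 CPM in T1 and 41.9 CPM in T2, against 7.80 to 31.4 CPM in the spleens. That made a 2.74-fold difference of the means, and the highest spleen was that of M00236. The measure and the list without Lmo2 were added after the values were seen.

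Genes of resting follicular B cells were lower in part. Of 10 such genes 3 were called lower, against 4.33% of all genes, and the median log2 ratio of the 10 was -1.03. Ighd, which encodes the constant region of IgD, was at 0.533 CPM in T1 and 2.12 CPM in T2, and the 5 spleens from other mice had 79.4 to 284 CPM. The spleen of mouse M00247 had 3.54 CPM, above the tumour but close to it, so the Ighd call was lost against that spleen alone, at a log2 ratio of -1.41. Cr2, the complement receptor of mature B cells, was at 2.40 and 4.24 CPM against 28.0 to 373 CPM, and here the M00247 spleen, at 28.0 CPM, was also above the tumour. Against the M00247 spleen alone, 2 of the 10 genes were called higher, Fcer2a and Ccr7, at log2 ratios of 6.31 and 2.94. Only Cr2 stayed called lower there. Of 4 marginal zone B cell genes none was called; Cd1d1, which presents lipid antigens, was at 2.80 and 4.94 CPM against 5.38 to 30.8 CPM, and S1pr3, a receptor of marginal zone positioning, at 15.9 and 13.3 CPM against 4.03 to 13.0 CPM. Without T2, 2 of the 4 were called lower, and without the spleen of M00236, M00247 or M00249 1 was.

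The 11 plasma cell genes summed to 9489 and 6830 CPM, above all spleens at 505 to 2126 CPM. Of these genes 5 were called higher and the median log2 ratio was 1.61; 9 lay above all spleens, against 29.2% of all genes. The count of 5 became 3 without the spleen of M00236 or of M00247, 1 with pan B scaling and 9 against the spleen of M00247 alone. Most of the sum was Jchain, which joins IgA and IgM into polymers: 7462 CPM in T1 and 5154 CPM in T2 against 163, 702 and 1224 CPM for the lowest, median and highest spleen. Mzb1, a chaperone of immunoglobulin assembly, was at 879 and 749 CPM against 104 to 220 CPM. Xbp1, the transcription factor of secretory expansion, was above all spleens at 252 and 230 CPM against 37.2 to 224 CPM, a 1.89-fold difference that did not reach the limit. Irf4, needed for both germinal centre entry and plasma cell formation, was at 153 and 110 CPM against 21.7 to 69.8 CPM.

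The heavy chains were almost entirely IgA. Igha, the constant region of IgA, was at 41068 CPM in T1 and 28888 CPM in T2. The spleens had 198 CPM at the lowest, 721 CPM at the median and 1269 CPM at the highest, which made a 50.4-fold difference. As a share of all counts on 8 heavy chain constant genes, Igha took 99.6% in T1 (exact 95% interval 99.62 to 99.67%) and 96.4% in T2 (96.33 to 96.48%), against 1.07 to 13.1% in the spleens. These intervals cover counting error only. Ighm, the constant region of IgM and the leading heavy chain of every spleen, was at 60.0 and 256 CPM against 2601, 10352 and 16803 CPM, a 62.7-fold lower mean. Ighg2b, an IgG constant region, was also called lower, at 25.6 and 146 CPM against 276 to 1288 CPM. Ighg2c at 51.5 and 199 CPM overlapped the spleens at 185 to 1289 CPM. Without strand information for the counting, and with near-identical segments, reads among the IgG genes can be shared, so their split is uncertain.

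Ighe, the constant region of IgE, separated the tumour's own libraries. It had 3 counts in T1 and 3601 counts in T2, which is 0.4 and 424 CPM, while the spleens had 0.769 to 2.34 CPM; it was named after its values were seen. Of the 12 immunoglobulin constant genes 1 was called higher and 3 lower; without T2 5 were called lower, and without T1 2 were called higher. None of the 4 light chain constant genes was called. Igkc, the kappa constant region, was at 51703 and 27945 CPM against 12172 to 49216 CPM, so T1 was above the spleens and T2 among them, and it took 98.9 and 98.1% of light chain counts against 88.8 to 98.7% in the spleens. All 12 immunoglobulin constant genes together took 9.35% of T1 and 5.84% of T2 against 2.02 to 7.25% of the spleens.

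**Figure D2:**
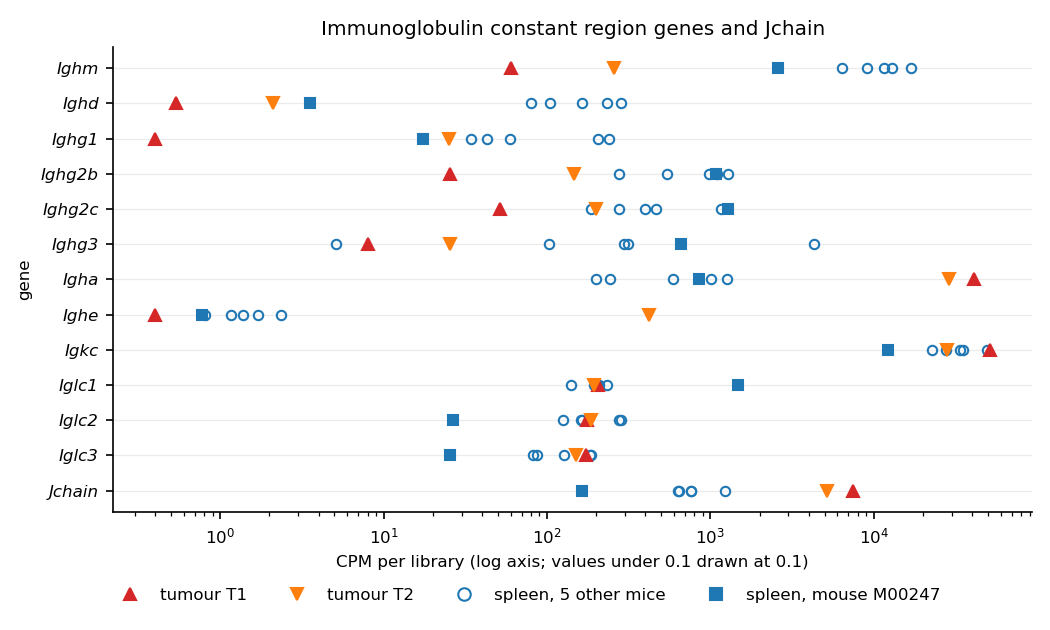
CPM on a log axis of 12 immunoglobulin constant region genes and Jchain, 1 point per library, with the symbols for tumour T1, tumour T2, the M00247 spleen and the 5 other spleens. Igha and Jchain lie above every spleen in both tumour libraries, Ighm, Ighd and Ighg2b lie below, and Ighe is high in T2 only.

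Variable gene segments were thinly counted in these 3′ libraries. The tumour libraries had 17 and 34 counts over 185 Ighv genes, and 36 and 36 counts over 160 Igkv genes, under the minimum of 100 counts set for a comparison. The spleens had 38 to 391 Ighv counts and 32 to 282 Igkv counts. Their heavy chain constant counts were 42270 to 164473, against 309094 in T1 and 254675 in T2. The reason for the low variable gene counts was not tested. Ighv1-58 led the Ighv genes in both tumour libraries, with 9 of 17 counts in T1 (52.9%, exact 95% interval 27.8 to 77.0%) and 21 of 34 counts in T2 (61.8%, 43.6 to 77.8%). Igkv14-111 led the Igkv genes in both, with 17 of 36 counts (47.2%, 30.4 to 64.5%) and 9 of 36 counts (25.0%, 12.1 to 42.2%). In the 5 spleens that passed the minimum, the leading Igkv gene was Igkv5-39. The lambda locus had enough counts. Iglv1 took 87.0% of 338 counts in T1 (82.9 to 90.4%) and 85.0% of 286 counts in T2 (80.3 to 88.9%), against 21.8 to 74.0% in the 4 spleens with at least 100 counts, where the highest interval reached 78.9%. With 3 Iglv genes and near-identical segments, this share does not count clones.

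Of 8 genes of DNA repair and hypermutation 2 were called higher, Neil1 among them, and 6 lay above all spleens, against 29.2% of all genes. Apex1, the endonuclease of base excision repair, was at 52.4 and 57.8 CPM against 13.1 to 23.7 CPM, and Ung, a uracil glycosylase, at 30.9 and 33.2 CPM against 12.8 to 21.1 CPM. Msh6, a mismatch sensor, was at 69.5 and 47.3 CPM against 24.4 to 40.1 CPM. None of 19 mitosis genes and none of 18 DNA replication genes was called in either direction, with median log2 ratios of -0.03 and -0.09. Mki67, a marker of cycling cells, was at 546 and 373 CPM inside the spleen range of 176 to 1153 CPM, and Top2a, the topoisomerase of mitosis, at 943 and 727 CPM inside 206 to 1029 CPM.

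Of 19 T cell genes none was called; the list summed to 409 CPM in T1 and 809 CPM in T2 against 140 to 820 CPM. Against the spleen of mouse M00247 alone, which had the lowest level of Cd3d and Cd4 among the spleens, 14 of the 19 were called higher, and the summed log2 ratio was 2.12 in place of 0.59. Cd3d, a chain of the T cell receptor complex, was at 25.2 and 62.6 CPM against 12.1 to 40.9 CPM. Cd4, the coreceptor of helper T cells, was at 59.2 and 59.9 CPM, above the highest spleen at 44.1 CPM. Of the 7 follicular helper genes 5 passed the minimum level, with a median log2 ratio of 2.03. Of these 3 were called higher and 4 lay above all spleens, against 2.57 and 29.2% of all genes. Tox2, a transcription factor of this T cell type, was at 143 and 147 CPM against 12.5, 15.6 and 23.5 CPM, an 8.59-fold difference. Icos, the costimulatory receptor, was at 76.0 and 79.7 CPM against 10.5 to 37.5 CPM. Il21, the cytokine that supports germinal centre B cells, was at 8.40 and 9.23 CPM against 0.244 to 2.01 CPM. Pdcd1, the receptor PD-1, was at 14.3 and 17.4 CPM against 1.95 to 5.52 CPM, but at a log2 ratio of 2.03 its call was lost in 9 of 15 other settings, among them TMM scaling and leaving out T2 or the spleens of M00236, M00247 or M00249.

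Of the 7 cytotoxic cell genes that passed, 2 were called higher and 5 lay above all spleens, against 29.2% of all genes. Without T2 1 was called, and against the spleen of M00247 alone 6 were. Ccl5, a chemokine of effector T and NK cells, was at 213 and 466.3 CPM against 73.3 to 161 CPM, and Nkg7, a granule protein, at 52.8 and 117 CPM against 20.8 to 52.1 CPM. Gzma, a granule protease, was called higher at 9.87 and 31.4 CPM against 2.46 to 4.71 CPM; without T2 the call was lost.

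The follicular and homing genes gave a mixed picture. Cxcl13, the chemokine that draws B cells into follicles, was at 53.9 and 125 CPM inside or just under the spleen range of 56.3 to 197 CPM. Its receptor Cxcr5 was at 49.5 and 28.5 CPM against 13.5 to 47.0 CPM. Mfge8, which follicular dendritic cells and macrophages use to bind dying cells, was above all spleens at 741 and 784 CPM against 246.3 to 623 CPM. Vcam1, an adhesion molecule of lymphoid stroma, was below all spleens at 300 and 350 CPM against 493.4 to 817 CPM. Ccl21a, the T zone chemokine, was at 95.2 and 504 CPM against 6.15 to 287 CPM, so T2 was above the spleens and T1 among them. Ccl19 and Ccl21a each stand on 2 lines of the deposited table, and the line with the higher total was used. Madcam1, the gut endothelial ligand of homing lymphocytes, was called higher, at 43.7 and 44.8 CPM against 3.54 to 10.6 CPM. So was Ccr10, a receptor of IgA plasma cells, at 20.0 and 18.3 CPM against 0 to 0.862 CPM, and Glycam1, a ligand made by high endothelial venules, at 13.6 and 82.2 CPM against 0 to 4.48 CPM. These 3 genes were named after their values were seen.

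Macrophage genes went both ways. Of the 17 that passed, 1 was called higher and 4 lower, while 9 lay above all spleens, against 29.2% of all genes. The 18 genes of the list summed to 4826 and 6074 CPM, above all spleens at 2023 to 3061 CPM, and most of that sum was Lyz2 and Ctss. Lyz2, lysozyme of myeloid cells, was at 2066 and 2276 CPM against 369 to 1284 CPM. Ctss, an endosomal protease, was at 1021 and 1359 CPM against 306 to 514 CPM, and C1qb, a complement subunit, at 400 and 606 CPM against 156 to 279 CPM. Csf1r, the growth factor receptor of macrophages, overlapped the spleens at 293 and 269 CPM against 195 to 340 CPM. Marco, a scavenger receptor, was called lower with 0 CPM in T1 and 49.5 CPM in T2 against 73.5 to 265 CPM; the call was lost without T1 or without the spleen of M00246. The other 3 called lower, named after their values were seen, held in each of 15 other settings. Adgre1, which encodes the macrophage marker F4/80, was at 3.07 and 5.53 CPM against 20.4 to 37.6 CPM. Mrc1, the mannose receptor, was at 10.0 and 10.7 CPM against 86.2 to 179 CPM, and Cd163, the haemoglobin scavenger receptor, had 0 and 1 counts, or 0 and 0.118 CPM, against 21.4 to 44.0 CPM. The gene called higher was Msr1, a scavenger receptor also named after its values were seen, at 22.9 and 29.6 CPM against 1.03 to 4.61 CPM. No dendritic cell gene was called; without T1, or without the spleen of M00245 or of M00248, 1 was called higher, and without T2 1 lower. Itgax, an integrin of dendritic cells and some macrophages, was at 49.7 and 99.2 CPM, above the spleens at 13.4 to 26.5 CPM.

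Genes of antigen presentation on MHC class II summed to 7655 and 9318 CPM against 2125 to 6178 CPM, and none of 10 reached the 4-fold limit. H2-Eb1 was at 2035 and 2580 CPM against 469 to 1223 CPM, and Ciita, the master activator of these genes, at 189 and 199 CPM inside the range of 53.7 to 203 CPM. Of 14 interferon-stimulated genes 1 was called higher and 1 lower. Gbp2, a GTPase induced by interferon gamma, was called higher at 104 and 163 CPM against 15.7 to 42.1 CPM, and lost the call in 5 of 15 other settings, among them leaving out T2. Rsad2, the antiviral enzyme viperin, was called lower at 26.8 and 35.4 CPM against 235.8 to 1071 CPM.

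Of 12 pan-epithelial genes 1 passed the minimum level and none was called, and the list summed to 18.5 CPM in T1 and 12.9 CPM in T2 against 9.58 to 23.7 CPM in the spleens. Against the spleen of mouse M00247 alone, 1 was called higher, Epcam. Epcam, the adhesion molecule of epithelial cells, was at 13.1 and 7.76 CPM against 1.69, 2.95 and 8.12 CPM for the lowest, median and highest spleen, so T1 was above and T2 within the spleens. Krt8 and Krt18, the paired keratins of simple epithelium, were at 1.07 and 0.667 CPM in T1 and at 0.588 and 0.941 CPM in T2, inside the spleen ranges of 0.769 to 2.75 and 0 to 2.34 CPM or just under. Krt19 and Krt20, keratins of gut epithelium, were at 0.133 CPM each in T1 and 0 in T2. Cdh1, the epithelial cadherin, was at 2.27 and 2.71 CPM against 1.90 to 5.68 CPM. The claudins Cldn3, Cldn4 and Cldn7, which seal epithelial junctions, were at 0.133 CPM or less. Esrp1, an epithelial splicing factor, was at 0.4 and 0.353 CPM against 0 to 0.690 CPM. Elf3, an epithelial transcription factor, was at 0.133 and 0 CPM against 0 to 0.259 CPM. So of the 12 epithelial markers of the labelled tissue, intestine, those other than Epcam were at 2.71 CPM or less in both tumour libraries, and Epcam was above every spleen in T1. The log2 ratio of the summed list was 0.0028, and its sign changed with TMM scaling, at -0.12, and without T1, at -0.28.

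**Figure D3:**
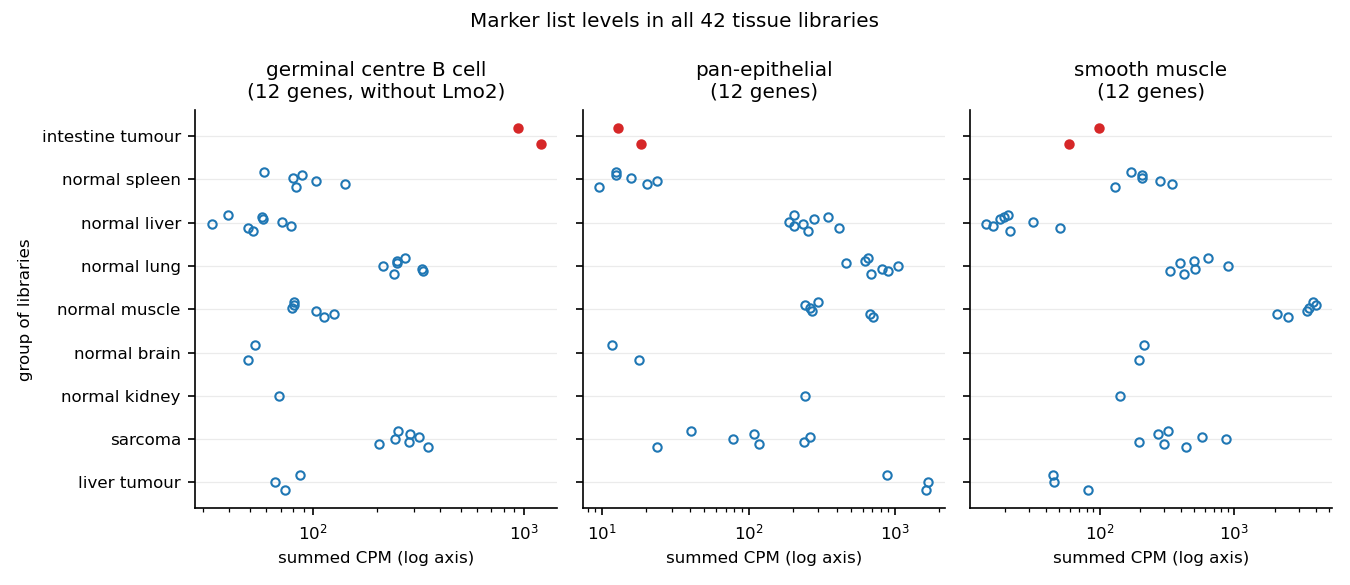
Summed CPM on log axes of the germinal centre B cell list without Lmo2, the pan-epithelial list and the smooth muscle list in all 42 tissue libraries, 1 point per library. The tumour libraries are highest for the first list, at 930 and 1202 CPM, lie among the spleens for the second, and lie below the spleens for the third. Lmo2 was left out after the values were seen. With Lmo2 kept (not drawn), the tumour libraries were at 979 and 1261 CPM and the spleens at 145 to 295 CPM.

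Of 20 enterocyte genes 5 passed the minimum level and none was called, and 7 had no count in either tumour library. Against the spleen of mouse M00247 alone, 3 were called higher: Anpep, Dpp4 and Mttp. Fabp1 and Apoa1, made by enterocytes and by hepatocytes, were at 7.33 and 12.1 CPM and at 14.9 and 7.18 CPM, inside the spleen ranges of 6.47 to 13.2 and 7.07 to 37.9 CPM. The hepatocyte gene Alb was at 77.1 and 45.3 CPM in the tumour and at 47.7 to 194 CPM in the spleens. Anpep, an aminopeptidase of enterocytes that myeloid cells share, was above the spleens at 17.9 and 19.7 CPM against 3.54 to 11.8 CPM. Alpi, Sis, Cdx1 and Cdx2, named after their values were seen as genes that define the intestinal lineage, had 0 counts in both libraries, which allows up to 0.4 CPM in T1 and 0.353 CPM in T2. Of 10 goblet cell genes 7 had no count in the tumour, Muc2 (the gut mucin) and Clca1 among them. Zg16, the gene of this list called lower, had 0 counts in the tumour against 0.307 to 103.5 CPM, but its spleen level came from M00246, which also had the pancreatic genes, and the call was lost without that spleen.

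Of 9 Paneth cell genes 6 had no count, the defensins Defa17 and Defa22 among them. Lyz1, the Paneth cell lysozyme, was called higher at 259 and 217 CPM against 3.69 to 21.5 CPM. It is a near-identical copy of the myeloid Lyz2, which stood at 2066 and 2276 CPM, so reads can be split between them and the Lyz1 level is uncertain; normal lung, which holds many macrophages, reached 340 CPM. Among crypt stem cell genes Olfm4 had no count and Smoc2 was called lower at 2.40 and 2.82 CPM against 45.2 to 182 CPM. Lgr5 and Ascl2, the receptor and the transcription factor that define crypt stem cells, did not pass the minimum level but were above all spleens. Lgr5 was at 2.53 and 2.12 CPM against 0.154 to 0.812 CPM, and Ascl2, which follicular helper T cells also use, at 2.80 and 2.82 CPM against 0 to 0.688 CPM; both were named after their values were seen. Slc12a2, an ion transporter of crypt cells and other cells, was above the spleens at 66.3 and 70.1 CPM against 18.5 to 41.9 CPM. The 8 enteroendocrine genes summed to 4.27 and 6.24 CPM against 0.812 to 3.45 CPM, and none passed the minimum level. The tuft cell genes Il25 and Pou2f3 had no count, and the M cell gene Gp2 had none.

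Of 12 smooth muscle genes 9 passed the minimum level, 3 were called lower, against 4.33% of all genes, and none higher. The list summed to 58.8 CPM in T1 and 98.8 CPM in T2, below all spleens at 130 to 344 CPM. Acta2, smooth muscle actin, was at 12.3 and 7.53 CPM against 18.8, 48.3 and 97.9 CPM. Myl9, a myosin light chain, was at 2.13 and 3.65 CPM against 23.6 to 65.2 CPM, and Lmod1, an actin nucleator, at 0.267 and 1.06 CPM against 1.54 to 12.3 CPM. The Lmod1 call was lost in 7 of 15 other settings, among them TMM scaling and leaving out the spleen of M00245 or M00246, and the Acta2 call against the M00247 spleen alone. Without T2, 6 of the genes were called lower in place of 3, the further 3 being Myh11, Tpm2 and Smtn, the last named after its values were seen. Myh11, smooth muscle myosin, was at 5.47 and 13.3 CPM, below or inside the range of 9.58 to 49.7 CPM. Of the enteric nervous system, Sox10 and S100b, genes of glia, were at 1.20 CPM or less, and 1 of 10 genes passed the minimum level. Ano1, the channel of the gut's pacemaker cells, was at 0.667 and 1.06 CPM against 0.615 to 8.79 CPM.

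Of 16 fibroblast genes 13 passed the minimum level, with a median log2 ratio of -0.15. Of these 2 were called higher, against 2.57% of all genes, and none lower. Without T2, or without the spleen of M00245, 1 was called lower. Dcn, the matrix proteoglycan decorin, was at 365 CPM in T1 and 524 CPM in T2 against 18.3, 53.0 and 115 CPM, a 7.28-fold difference with no overlap. The 16 genes summed to 805 CPM in T1 and 1108 CPM in T2 against 479 to 863 CPM in the spleens. Dcn alone held 365 and 524 CPM of the tumour sums. Lum, the related lumican, was at 10.3 and 4.71 CPM against 0.610 to 2.07 CPM; without T1 its call was lost. The fibrillar collagens were not called. Col1a1 was at 45.3 and 53.9 CPM against 36.1 to 51.5 CPM, Col1a2 at 111 and 140 CPM against 66.0 to 204 CPM, and Col3a1 at 18.1 and 43.1 CPM against 28.6 to 61.4 CPM. In the sarcomas of this series Col1a1 reached 8397 CPM.

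Of 9 blood endothelial genes that passed, 1 was called lower and none higher. It was Vwf, named after its values were seen, and the call was lost without T1 or without the spleen of M00247. Pecam1, a junction protein of endothelium, was at 48.5 and 92.0 CPM against 49.5 to 121 CPM. Stab2, a scavenger receptor of sinus endothelium, was called lower at 3.47 and 4.82 CPM against 22.3 to 49.5 CPM. Lyve1, the hyaluronan receptor of lymphatic vessels, was called higher at 21.6 and 55.5 CPM against 1.71 to 8.77 CPM. Prox1, the factor that sets lymphatic identity, was not, at 3.87 and 10.8 CPM against 9.03 to 18.7 CPM.

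Of the genes that mark the spleen itself, some had no count in the tumour and others remained. Tlx1, the factor needed to form the spleen, had 0 counts in both tumour libraries against 8.46 to 43.0 CPM, which put the spleens at least 105-fold higher. Nkx2-5, of splenic mesenchyme, also had 0 counts, against 1.54 to 5.69 CPM. Nkx2-3, the third gene of that list, which gut mesenchyme also expresses, overlapped the spleens at 4.27 and 9.18 CPM against 6.96 to 16.6 CPM. Slc40a1, the iron exporter of red pulp macrophages, was at 3.20 and 2.24 CPM against 130, 178 and 310 CPM, a 71.9-fold lower mean. Of 6 red pulp macrophage genes 5 were called lower and all 6 lay below the spleens, against 10.5% of all genes; the list summed to 40.5 and 88.0 CPM against 453 to 786 CPM. Cd5l, a secreted macrophage protein, was at 2.53 CPM in T1 and 39.8 CPM in T2 against 78.6 to 270 CPM, and Spic, the factor that forms these cells, was not called at 17.6 and 21.3 CPM against 60.3 to 94.99 CPM. Without T1 the count of 5 became 3, as Cd5l and Itgad lost the call. All 12 erythroid genes found in the table were called lower, and so were all 6 of the 7 megakaryocyte genes that passed the minimum level. Treml1, a platelet receptor, was at 0 and 0.235 CPM against 16.9 to 151 CPM. Of 12 neutrophil genes 6 were called lower, against 4.33% of all genes. The count became 10 without T2 or without the spleen of M00245, 4 against the median of the spleens and 12 against the spleen of M00247 alone. S100a9 was at 45.1 and 41.0 CPM against 76.9 to 708 CPM in 5 spleens and 7215 CPM in the M00247 spleen.

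**Figure D4:**
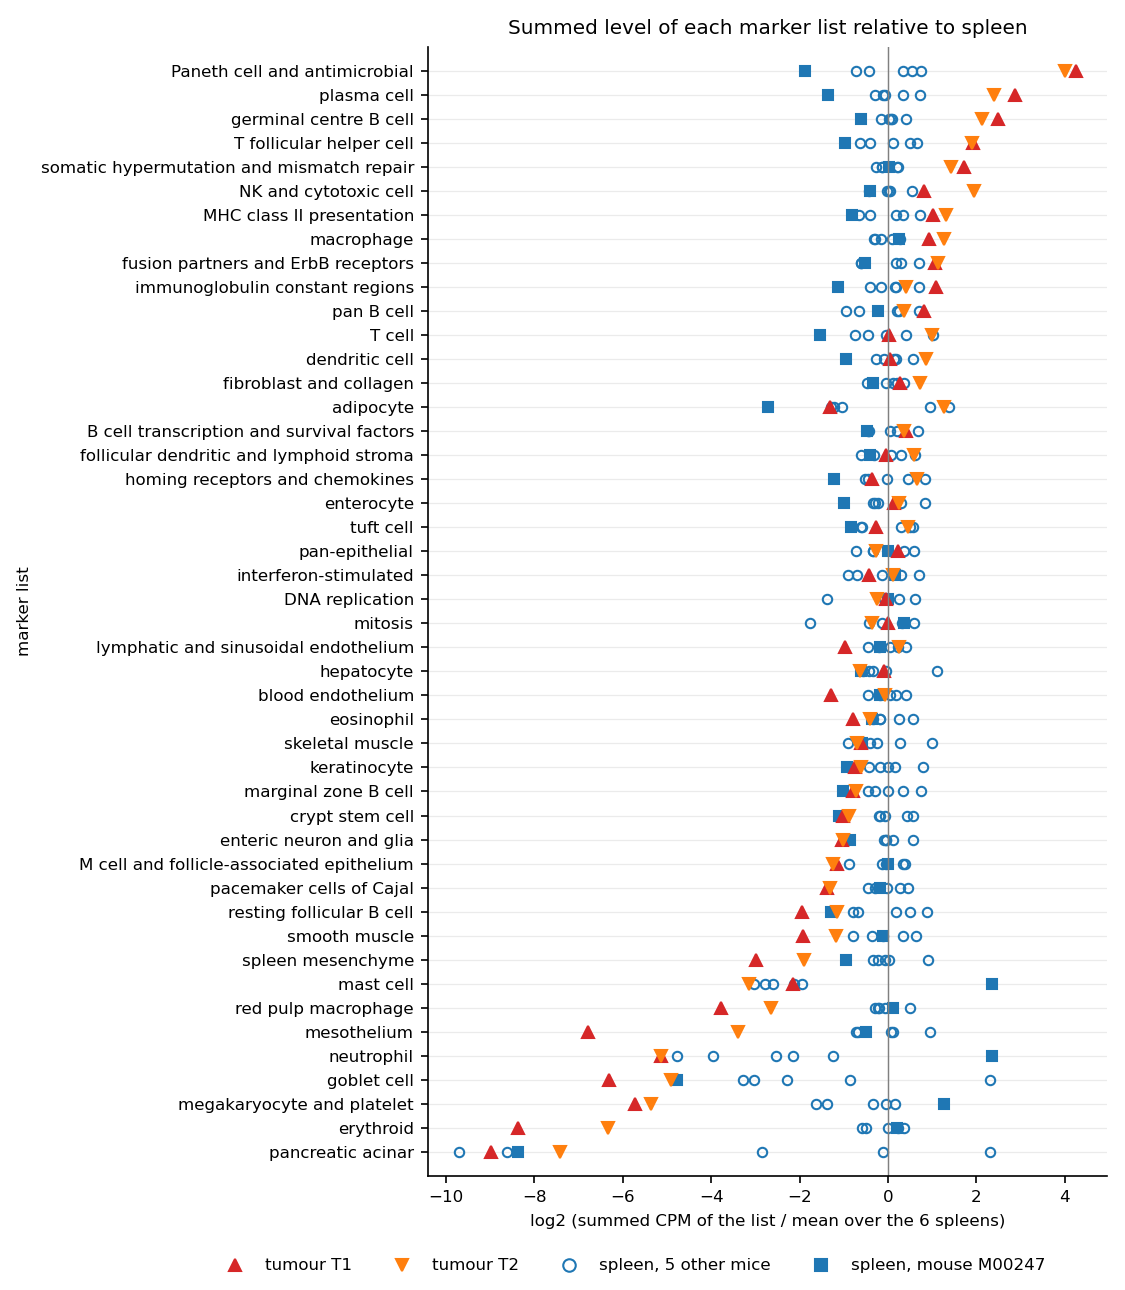
Summed CPM of 46 marker lists in each library, as log2 of the ratio to the mean of the 6 spleens (0 line), ordered by the tumour mean; the enteroendocrine list, under 5 CPM in every spleen, is left out. Tumour triangles lie right of all spleens for the germinal centre, plasma cell and follicular helper lists, among them for the pan-epithelial list, and left of them for the smooth muscle, red pulp and erythroid lists.

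Over all 47 lists the summed level of 10 lay above all spleens in both tumour libraries, 12 lay below and 25 overlapped. The partners of the fusion were both above the spleens. Nrg1, the growth factor part, was called higher at 94.1 CPM in T1 and 71.2 CPM in T2 against 2.34, 12.2 and 26.9 CPM, a 6.10-fold difference. That call was lost in at least 1 of the other settings. The liver and lung of the same mouse had 82.1 and 64.8 CPM, so levels of this size also stood in tissue of that animal labelled normal. Counts of the endogenous gene and of the transgene were not separated. Cd74, the other partner and a chaperone of MHC class II, was at 1646 and 1748 CPM against 514 to 1327 CPM. The receptors of neuregulin were scarce: Erbb3 was at 2.00 and 4.00 CPM, Erbb2 at 0.4 and 1.41 CPM and Erbb4 at 0 in both, and Egfr was at 5.33 and 2.71 CPM.

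Among the genes with the highest ratios, most had almost no count in any spleen. Ffar3, a receptor for short-chain fatty acids, had 65 counts in T1 and 151 in T2 and 1 count in the 6 spleens together, a ratio of 576 (exact 95% counting interval 99.8 to 22309). Zic5, a zinc finger factor of the developing brain, had 101 and 128 counts and none in the spleens, so it was at least 198-fold higher. Apol7b, of the apolipoprotein L family, was at least 91.4-fold higher, but its near-identical copies can share reads and the call was lost without T1. Gpat2, an acyltransferase known from testis, was at 27.6 and 25.7 CPM against 0 to 0.615 CPM, and Cacng6, a calcium channel subunit, at 32.4 and 40.5 CPM against 0 to 0.389 CPM. Rgs13 ranked seventh, and Anxa10, Platr14, Rflna and Aimp2 made up the 10. Anxa10 rested on T2, with 13 and 107 counts, and its call was lost without T2. Over all 42 tissue libraries the tumour held ranks 1 and 2 for 10 of 13 germinal centre genes and 8 of these 10 genes. The latter 10 were picked for their ratio to the spleens, so their rank above the spleens was given by the choice. The counting intervals of genes picked as extremes do not allow for that choice. The germinal centre list was itself chosen with earlier results of these data known, and Rgs13 stands in both sets. The 10 lowest ratios were Car1, Trim10, Tspo2, Gata1, Kel, Btnl10, Nfe2, Sowaha, Mpo and Slc4a1. Slc4a1, the anion exchanger of red cells, was at 1.20 and 1.06 CPM against 134 to 1205 CPM. Car1, a red cell carbonic anhydrase, had 1 count in the tumour against 7361 counts in the spleens, a ratio of 2517 (507 to 111711).

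Over 10256 genes with at least 50 counts in 1 of them, 105 genes (1.02%) were 4-fold or more higher in T2 and 40 (0.39%) in T1, and the median ratio of T2 to T1 was 1.09, with 6637 genes higher in T2. No germinal centre gene was among those 4-fold apart, and 12 of 13 were lower in T2, at a median ratio of 0.817. All 19 T cell genes were higher in T2, at a median ratio of 2.15, and so were all 9 blood endothelial genes with enough counts, at 2.54. Ighe had the highest ratio of any gene in T2, 1059-fold on 3 and 3601 counts (exact 95% counting interval 362 to 5138). Marco was at least 124-fold and Apol7e at least 29.1-fold higher in T2, each with 0 counts in T1. Cfd, the adipocyte protease adipsin, had 1 and 97 counts, a ratio of 85.6 (15.0 to 3415), and the homeobox genes Meox2 and Hoxc10 had 1 and 73 and 1 and 54 counts.

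The 5 named genes furthest higher in T1 were Il11, Mmp10, Cxcl2, Hgs and Mcpt1. Mmp10, a matrix protease, had 189 counts in T1 and none in T2, and was at least 71.4-fold higher. Il11, a cytokine of stromal cells, had 145 and 2 counts, a ratio of 82.2 (22.3 to 685), and Cxcl2, which attracts neutrophils, 80 and 2 counts, a ratio of 45.3 (12.1 to 381). Mcpt1, the mucosal mast cell protease, had 67 and 3 counts, a ratio of 25.3 (8.30 to 126). The neutrophil gene S100a9 was nearly equal in both, at 45.1 and 41.0 CPM. Hgs had 102 counts in T1 and 0 in T2, and 0 in 1 of the spleens as well. Since both libraries are from 1 animal, the intervals compare these libraries and say nothing of other animals.

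**Figure D5:**
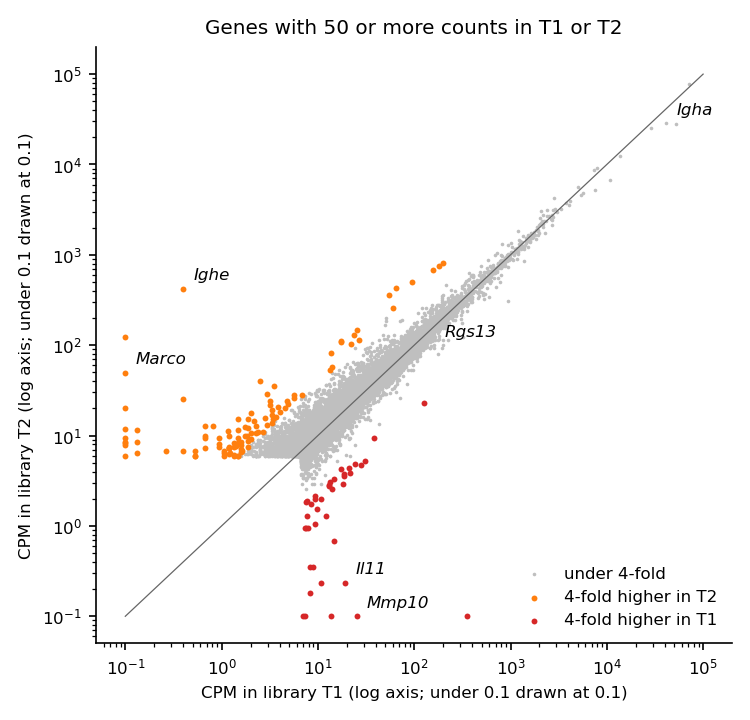
CPM of library T2 (vertical) against library T1 (horizontal), log axes, for genes with at least 50 counts in 1 of the 2; colours mark genes 4-fold or more higher in T2 (105) or T1 (40), and the line marks equal levels. Rgs13 and Igha lie near the line, Ighe and Marco far above it, Mmp10 and Il11 far below.

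The other tissues of the series place these levels. Rgs13 did not exceed 1.46 CPM in any of the 40 other tissue libraries, and was at 0.577 and 1.08 CPM in the liver and lung of mouse M00247. The germinal centre list without Lmo2, a list added after the values were seen, summed to 1202 and 930 CPM in the tumour. It summed to 206 to 349 CPM in the sarcomas, 215 to 330 CPM in normal lung and 33.1 to 142 CPM in liver and spleen. With Lmo2 kept, the list summed to 1261 and 979 CPM in the tumour and 145 to 295 CPM in the spleens. The means then differed 5.03-fold. With Lmo2 the spleens overlapped the sarcomas, at 222 to 362 CPM, and normal lung, where the lowest library was at 264 CPM. S1pr2 is not restricted to B cells and reached 102 CPM in a sarcoma. The pan-epithelial list, at 12.9 and 18.5 CPM in the tumour, summed to 462 to 1054 CPM in normal lung and 877 to 1682 CPM in the liver tumours. It also summed to 242 to 706 CPM in libraries labelled normal muscle and 23.9 to 264 CPM in the sarcomas, so it was not read in epithelial organs alone. In normal brain it was at 11.8 to 17.8 CPM.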

How the data were processed

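The authors deposited expected counts (estimated counts of reads per gene) for 42 tissue libraries, made from QuantSeq 3′ libraries per the labels' protocols; 8.09 to 10.0% of values per library used here were not whole numbers. Which aligner, counter and genome build produced them is not given in the sources used here. Coordinates are left out. The other deposited files were not used. CPM was computed as the count divided by the library total, times 1000000, with no rounding; counts were rounded for intervals. 8 libraries entered: T1, T2 and 6 spleens. The spread between the 6 spleens is between animals; that between T1 and T2 is within 1 animal. Chi-square per degree of freedom between T1 and T2 was 19.9 over 13746 genes, so they differ by more than sampling noise. Calls used the level minimum of 5 CPM, the 4-fold limit and non-overlap described with the results. The rule was run on simulated counts with changes well beyond the 4-fold limit, in genes well above the level minimum. Calls near these limits were not checked by it. A group with 0 counts was put at 3 counts over its summed totals. Intervals are exact binomial, at 95%. PCR reads without molecular identifiers are not independent molecules, so intervals cover counting error only. TMM and relative log expression factors came from edgeR 4.0.16 in R 4.3.3; other steps used Python 3.11.15, numpy 2.4.6, pandas 2.3.3, scipy 1.17.1 and matplotlib 3.10.9.

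Marker lists (47, with 450 distinct genes, 449 in the table) and the members were chosen with earlier results of these data known. Named genes were all members of the germinal centre, pan-epithelial and fusion lists, the 10 highest and 10 lowest ratios, up to 6 members of each other list by mean CPM, called members of the enterocyte, smooth muscle and fibroblast lists, and the 5 most extreme genes each way between T1 and T2. The rankings skipped unnamed gene models, antigen receptor segments, haemoglobin genes and mitochondrial genes. Alternatives were other scalings, filters, folds and centres, a pseudocount, the own-mouse spleen alone, and leaving out each library. Genes with no symbol numbered 85. A few genes that this rule names are not reported here.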

Additional observations from a re-analysis of the deposited data

Results flagged for a closer look

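In the 6 spleens 69 summed levels and gene levels were examined for a library whose gap to its nearest neighbour is large against the whole range (Dixon's ratio above 0.625), and 11 were found. Chance finds about 1 in 20 groups when values are independent and normally distributed. CPM were used without a log, and all 11 found lay at the high end, so that rate may not hold here. The spleen of mouse M00247 was apart in 3: neutrophil genes at 21863 CPM (next 1807), mast cell genes at 582 CPM (next 29.7) and Iglc1 at 1478 CPM (next 234). The spleen of M00246 was apart in 4: pancreatic acinar genes at 999 CPM (next 189), goblet cell genes at 105 CPM (next 11.7), hepatocyte genes at 266 CPM (next 121) and Ighg3 at 4304 CPM (next 659). The spleen of M00245 was apart in 4: spleen mesenchyme genes at 64.1 CPM (next 34.4), mesothelium genes at 28.6 CPM (next 15.9), Neil1 at 11.4 CPM (next 7.12) and Efnb1 at 31.2 CPM (next 18.4). The Neil1 and Efnb1 values were the highest spleen levels of these genes and lay under both tumour libraries.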

How the results depend on the processing

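The count of genes called higher (289) became 473, 688 and 155 with a level minimum of 1 CPM, none and 20 CPM, 1253 and 121 with folds of 2 and 8, 924 against the M00247 spleen alone, and 139 when scaled to the pan B level, a setting chosen after seeing the data. The count called lower (487) became 869, 1013 and about 2.5e+02 with those minimums, 890 and 292 with those folds, and 890 with pan B scaling. The germinal centre summed log2 ratio (2.33) became 2.95 against the M00247 spleen and 1.46 with pan B scaling, under which the pan-epithelial value (0.0028) became -0.68, the enterocyte value (0.20) -0.47, smooth muscle (-1.50) -2.06 and fibroblast (0.51) -0.16. Against the M00247 spleen the enterocyte value was 1.20 and the fibroblast value 0.85. The median log2 ratio of the fibroblast genes that passed was -0.15, below the summed values. Leaving out each library gave 267 to 351 genes higher, 474 to 692 lower, and 10 or 11 germinal centre members higher. TMM scaling gave 234 higher and 562 lower, and 233 and 480 of the genes were shared with the calls reported. TMM, relative log expression scaling and the M00247 spleen alone shifted the median over all genes by -0.16, -0.19 and 0.15 on the log2 scale. No gene called in the results changed sign. The pan-epithelial summed ratio, close to 0, changed sign under 9 settings (range when leaving out each library -0.28 to 0.24), the enterocyte ratio also with totals without immunoglobulin, haemoglobin and mitochondrial genes (-0.07), and the fibroblast ratio with pan B scaling alone. Of 9471 gene ratios under other settings, 8542 moved by less than 1 SD of the spleens. Both counts include the settings that change only the level minimum or the fold, which cannot move a ratio. The cause of the changes across settings was not tested, beyond the settings' own construction. No paired analysis was possible because the tumour is 1 animal and shares 1 mouse with the spleens. Limits: 1 tumour, no normal gut or lymph node, thin variable gene counts, and a reference rich in haemoglobin.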
